A study of Caenorhabditis elegans with 60 samples.

Results

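The chromatin of wild-type embryos of the nematode Caenorhabditis elegans was followed along all chromosomes through trimethylated lysine 9 of histone H3 (H3K9me3), set against unprecipitated input chromatin. The group described is the strain N2 (Bristol), the laboratory wild type, which carries no mutant allele per the labels. The material was bulk chromatin of embryos collected before the bean stage from worms grown after synchronisation as L1 larvae. Libraries were taken by their labels: H3K9me3 2 and 3 against input 2 and 3 of N2, with both libraries of replicate 1 set aside. These are 4 of the 30 libraries of a series that covers 5 genotypes, or 8 of its 60 sequencing records, because each library was run 2 times. The 4 mutant genotypes were not used for any level reported here.

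H3K9me3 is the classical mark of constitutive heterochromatin and is bound by proteins of the HP1 family. In worm embryos it is laid down mainly by the methyltransferase SET-25, and marked chromatin is held at the nuclear envelope. C. elegans chromosomes are holocentric, with no single centromere around which heterochromatin could gather. The arms of the autosomes are rich in repeats and recombine often, while the centres are dense in conserved genes. Each chromosome also carries a pairing centre near 1 of its ends, where homologues pair in meiosis.

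The labels contradict themselves in ways that bear on the mark and on the replicates. Titles name H3K9me3, whereas the antibody in the chromatin protocol is one to LEM-2, a protein of the inner nuclear membrane, and which antibody was used was not tested. One protocol states 2 biological replicates and another 3, and the labels do not say which cultures the numbered preparations came from. All p-values therefore measure only the spread between these libraries, which may be technical. In bulk chromatin, more marked cells and more marking per cell cannot be told apart.

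The H3K9me3 libraries held 65845682 counts in preparation 2 and 65799118 in preparation 3, and the inputs held 52613090 and 57607558. The median window of 500 bp had 140 and 124 counts in the H3K9me3 libraries and 248 and 270 counts in the inputs. The 99th percentile window stood at 19.4 and 22.99 times the median in the H3K9me3 libraries, against 1.71 and 1.74 times in the inputs. The H3K9me3 reads were thus unevenly spread and the input reads nearly even.

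Replicate 1 went against its labels. In the library labelled H3K9me3 1 the same quantity was 1.72, within the range of inputs 2 and 3 (1.71 to 1.74), whereas in the library labelled input 1 it was 13.04. Across 200126 windows, the log2 ratio of H3K9me3 over input in replicate 1 had a Pearson correlation of -0.786 with that in replicate 2 and of -0.727 with that in replicate 3. Replicates 2 and 3 correlated at 0.959. With all 3 replicates under their labels, edgeR's quasi-likelihood test called 0 windows at an adjusted p under 0.05, while 162 higher and 43 lower windows had an unadjusted p under 0.05 and a log2 ratio of at least 1 in size. No other tool was run on that set. Under those labels the mean ratio, on the log2 scale, was 0.29 in autosome arms and -0.03 on X, against 0.77 and 0.11 with replicates 2 and 3. No library was given another name, and every value below rests on replicates 2 and 3, called preparations 2 and 3.

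Windows higher in H3K9me3 than in input were common and windows lower were rare. Of 200126 windows tested with edgeR's quasi-likelihood test, 39476 (19.7%) were called higher, at a Benjamini-Hochberg adjusted p under 0.05 and a log2 ratio of at least 1. Only 23 windows (0.0115%) were called lower by the same rule with a log2 ratio of at most -1. Of the higher windows, 89.3% had a log2 ratio of at least 1 in each preparation taken alone. Lower windows numbered 1479 without replicate 2 and 267 without replicate 3, in a fit where other genotypes supply the spread. Their count also rests on where the scale has its zero: TMM scaling, which takes most windows as unchanged, put the median window at a log2 ratio of -0.05, and scaling to library totals put it at -1.25. That shift of -1.21 leaves differences between regions as they are but not their sign against input, and under library totals 17364 windows were called higher and 126527 lower.

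The higher windows lay mostly in the arms of the autosomes, taken as 0.333 of the chromosome from either end. Arms held 54.9% of the windows tested and 88.4% of those called higher, centres held 27.4% and 3.68%, and X held 17.7% and 7.96%. Put as a share of their own windows, 31.8% of arm windows, 2.64% of centre windows and 8.89% of X windows were called higher, against 19.7% of all windows. Of these regions, arms alone were above the share of all windows.

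Levels give the same order. A level here is the mean over windows of the log2 of H3K9me3 over input, with a pseudocount of 8 counts. In arms it was 0.75 in preparation 2 and 0.80 in preparation 3 (0.77 ± 0.03, SD, n = 2), which became -0.39 under library totals. In centres it was -0.17 and -0.28 (-0.23 ± 0.07, SD, n = 2), and -1.38 under library totals. X stood between them at 0.14 and 0.07 (0.11 ± 0.05, SD, n = 2), and at -1.05 under library totals. Arms exceeded centres by 0.93 and 1.08 on the log2 scale in preparations 2 and 3, and X exceeded centres by 0.31 and 0.35. These differences were larger than the gap between preparations and do not depend on the zero of the scale. With 2 preparations against 2 an exact two-sided permutation test cannot give a p below 0.333, so levels of regions carry no test.

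**Figure D1:**
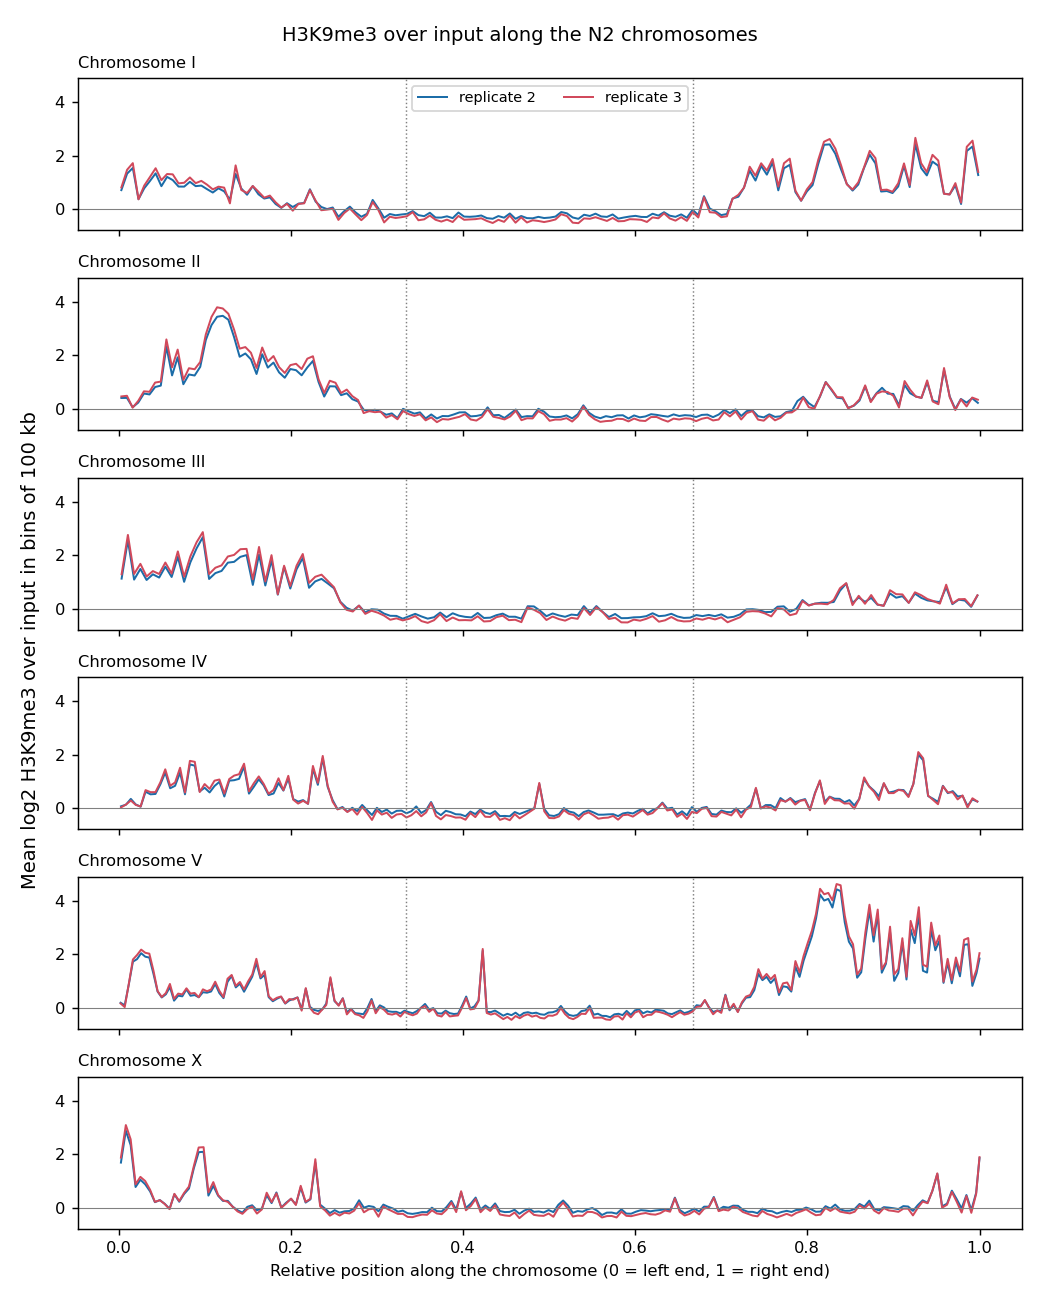
Mean log2 ratio of H3K9me3 over input in bins of 100 kb (y axis) along each N2 chromosome, by relative position from the left end at 0 to the right end at 1 (x axis), with 1 line for each preparation. Dotted lines mark the inner limits of the autosome arms; the 2 lines run together on every chromosome, and the highest bin lies in the right arm of V.

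Arms and centres were further apart in the upper tail of the windows than at the median. The 99th percentile window had a log2 ratio of 4.48 in preparation 2 and 4.70 in preparation 3 in arms, against 1.98 and 2.13 in centres, and it was 3.74 and 3.88 on X. At the median, arm windows stood at 0.35 and 0.38, against -0.24 and -0.36 for centre windows. The median X window, at -0.05 and -0.15, was closer to the centres, while the top X windows were closer to the arms. X thus combined a mostly unmarked sequence with a few strongly marked places.

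All 10 arms lay above the centre of their chromosome in both preparations, but the arms differed widely among themselves. Arm means on the log2 scale ran between 0.16 and 1.72, while the 5 centres kept to a narrow range of -0.31 to -0.15. The right arm of V was highest, at 1.65 in preparation 2 and 1.79 in preparation 3, with 56.8% of its windows called higher. It was followed by the left arm of II (1.17 and 1.32; 46.3% higher). The right arm of I (1.09 and 1.17; 46.2%) and the left arm of III (1.06 and 1.18; 46.6%) came next, and their values overlapped each other and the lower value of II left. A clear gap separated these 4 arms from the other 6.

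Among the lower arms, the left arms of IV (0.57 and 0.60), V (0.51 and 0.53) and I (0.48 and 0.51) were close together, and the order of V left and I left was not separated by more than their spread. The right arm of IV reached 0.38 and 0.34, the right arm of II 0.24 and 0.19, and the right arm of III 0.17 and 0.14. Between 11.9% of windows (III right) and 26.5% (IV left) were called higher in these 6 arms. Every chromosome therefore had a strong and a weak side, and the strong side was not the same on all.

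The higher of the outer parts was the right one on I and V and the left one on II, III, IV and X. On IV the left arm averaged 0.58 against 0.36 in the right arm, and on V the right arm averaged 1.72 against 0.52 in the left arm. The placing of pairing centres cannot be read from these data, and whether it goes with the higher side was not tested.

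**Figure D2:**
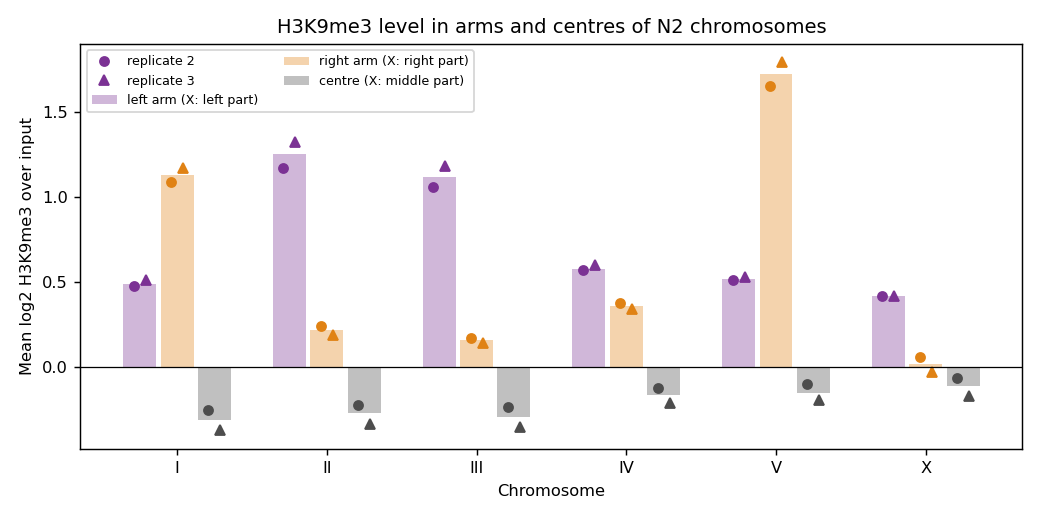
Mean log2 ratio of H3K9me3 over input (y axis) in the left arm, right arm and centre of each N2 autosome and in the left, right and middle parts of X, each 0.333 of its length (x axis), with circles for preparation 2, triangles for preparation 3 and bars for their mean. Arm means run between 0.16 and 1.72 and centre means between -0.31 and -0.15.

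The strongest windows were more concentrated than the called ones. A log2 ratio of at least 2 in both preparations was met by 17719 windows, of which the right arm of V held 27.5%. At a ratio of at least 4 in both, 2999 windows were left, and the right arm of V held 57.2% of them, against 6.96% of all windows tested. The left arm of II held 13.9% of these strongest windows, X 7.90% and all 5 centres together 2.23%. The share on X was close to its share of called windows (7.96%).

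The marked windows formed 3304 domains, defined as at least 2 called windows joined across at most 1 uncalled window. Domains were mostly short, with a median length of 2500 bp and quartiles of 1499.75 and 5000 bp. The 90th percentile was 12000 bp, and the longest had 880496 bp. Together they covered 19.6 Mb, or 19.6% of the length tested. They held 64.8% and 68.0% of the H3K9me3 counts of preparations 2 and 3, against 20.7% and 20.2% of the input counts.

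Short domains were numerous and long domains held the length. The 1634 domains of up to 2 kb were 49.5% of all domains and 11.2% of domain length. The 159 domains of over 20 kb were 4.81% of domains and 41.3% of domain length, and 38 of them were longer than 50 kb. The 10 longest held 13.3% of the length, the longest 4.49%, and the 262 longest together held 50% of it. The size distribution thus had a long upper tail with no typical large domain.

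Longer domains were also more strongly marked. The median of the domains' mean log2 ratios was 1.21 in preparation 2 and 1.44 in preparation 3 for domains of up to 2 kb, and 1.67 and 1.89 for those of 5 to 10 kb. For domains of over 20 kb it was 2.52 and 2.74. Each step to a longer class was upward in both preparations. Across 3304 domains, length and mean log2 ratio had a Spearman correlation of 0.57, given as a description because neighbouring windows share fragments and long domains need many windows past the same threshold. Median input depth, relative to the median window, was 0.923 in the shortest class and 0.935 in the longest.

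**Figure D3:**
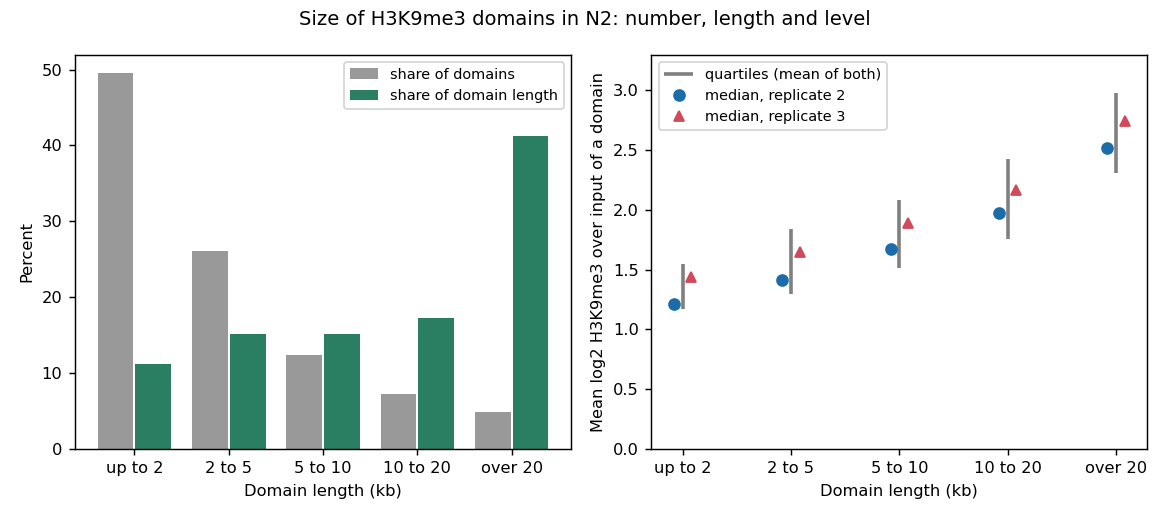
Left, share of the 3304 N2 domains and share of their total length (percent, y axis) by domain length class in kb (x axis); right, median over domains of their mean log2 ratio (H3K9me3 over input) in each preparation, with bars for the quartiles of the mean of both. Domains of over 20 kb are 4.81% of domains and 41.3% of the length, and their medians of 2.52 and 2.74 are the highest of the 5 classes.

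Where a domain lay went with its size. Arms held 79.3% of the domains of up to 2 kb and 91.8% of those of over 20 kb. There were 49.5 domains per Mb in arms, 8.67 in centres and 19.7 on X, and domains covered 31.6%, 2.49% and 8.76% of these regions. The longest domain had 880496 bp in arms, 24000 bp in centres and 67999 bp on X. Centres thus held fewer domains per Mb, and only 3 of theirs were longer than 20 kb.

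Strong and weak arms differed in the size of domains, in their number or in both, depending on the chromosome. On V the difference lay in size. The right arm of V had 44.5 domains per Mb and the left arm 46.1, yet domains covered 57.0% of the right arm and 23.5% of the left. In the right arm 34 domains were longer than 20 kb, against 11 in the left. On III the left arm had 60.2 domains per Mb covering 47.2% of it, and the right arm 38.6 per Mb covering 11.1%. There both the number and the size of domains were lower on the right. On IV the left arm had 58.4 domains per Mb and the right arm 42.3, while the median length was 2000 bp in each, so the difference lay more in number. The left arm of I had the densest set, with 63.8 domains per Mb, but only 6 of these were longer than 20 kb and 24.6% of the arm was covered.

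The longest domain lay in the right arm of V from 16965904 to 17846399 on the ce10 build, and all of its 1757 windows were called. Its scaled counts per window averaged 3350 and 3780 in H3K9me3 2 and 3, against 237 and 229 in input 2 and 3, a mean log2 ratio of 3.79 and 4.02. The highest adjusted p among its windows in edgeR's quasi-likelihood test was 7.25e-07. The groups do not overlap, but the domain was built from called windows, so neither this nor the p is separate support for it. Input here was near the genome's median window, at 1.19 times. This single stretch made up 4.49% of all domain length.

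Next in length was a domain in the left arm of II, from 1534007 to 2056504 (522498 bp), with all of its 1043 windows called. It averaged 2310 and 2680 scaled counts in H3K9me3 2 and 3, against 194 and 188 in input 2 and 3, a mean log2 ratio of 3.31 and 3.59. After it came a domain on V from 18114399 to 18363397 (248999 bp), which had log2 ratios of 3.19 and 3.42 with 4 of 497 windows uncalled. All but 1 of the 10 longest domains were in the right arms of V and I. On V these were the domains at 16824904 to 16959403, 18364398 to 18502896, 19193894 to 19348892 and 19363893 to 19519892, with mean log2 ratios of 2.98 to 3.56 in either preparation. The right arm of I held those at 12335949 to 12484447, 13050946 to 13149444 and 14877438 to 15005936, with lower ratios of 2.51 to 2.78.

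On the remaining chromosomes the longest domains were below 100 kb. On III it ran from 96603 to 186602 in the left arm (90000 bp; log2 ratio 2.77 and 3.02) and on IV from 16283774 to 16355273 in the right arm (71500 bp; 3.14 and 3.33). On X it lay from 209737 to 277735 (67999 bp; 2.97 and 3.18). Preparation by preparation, their ratios were above those of the long domains of I. Genes inside any of these domains were not named, because the gene table at hand is of another build.

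The domains with the highest mean ratio were spread over more chromosomes and were mostly shorter, although the longest domain of all, on V, was also among the highest. The highest was on X from 4025720 to 4063219, with a log2 ratio of 3.99 in preparation 2 and 4.26 in preparation 3. It averaged 11600 and 13600 scaled counts in H3K9me3 2 and 3, against 478 and 469 in input 2 and 3. Next came X from 104737 to 157736, at 3.88 and 4.07. Their input depth was 2.41 and 3.19 times the median window. In those of their windows with an input depth of 0.5 to 2 times the median, 36 of 75 and 92 of 106, the mean log2 ratios were 4.01 and 4.11, so they stayed high and their order turned.

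Domains with nearly as high a ratio at an input depth near the median included 2 in left arms, V from 311975 to 330974 (3.67 and 3.83; input 0.927 times the median) and IV from 889840 to 924339 (3.65 and 3.84; 0.960 times). On V the domain from 18718896 to 18786895 stood at 3.62 and 3.81, and the highest on III, from 1962595 to 1986594, at 3.51 and 3.79. The highest on II lay from 1389508 to 1402507 (3.42 and 3.72), to the left of the long domain of that arm. At a higher input depth of 1.64, the domain on X from 17439663 to 17451162 near the right end had 3.65 and 3.68, and its mean was 3.26, against 3.67, in the 16 of 23 windows of even input. High ratios were therefore not a matter of length alone.

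A few sharply marked islands stood out within the centres, which otherwise held little. On IV from 8561808 to 8583806, the log2 ratio was 3.70 and 3.88 over 43 windows, with scaled counts of 32700 and 37000 in H3K9me3 against 791 and 776 in input, at 3.99 times the median input depth. In its 26 windows of even input (0.5 to 2 times the median) the mean ratio was 2.57, against 3.79 over all of them, which ended its place as the highest in a centre. A short domain on IV from 9065805 to 9067804 had 3.61 and 3.70 with an input depth of 0.749. The longest pair in a centre, chosen after its values were seen, lay side by side on V from 8822938 to 8846937 (3.52 and 3.63) and from 8865438 to 8888937 (3.56 and 3.60), at input depths of 0.935 and 0.920. The peak in the centre of V in the profile along the chromosomes is the bin of 100 kb that holds this pair. The pair's 95 windows averaged 3.54 and 3.62 there, and the bin's other 103 windows 0.88 and 0.92, also above the level of that centre (-0.10 and -0.19).

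Windows with high input depth carried more than their share of H3K9me3 reads. Of the windows tested, 1644 had at least 2 times the input depth of the median window, and 727 of these (44.2%) were called higher, against 19.7% of all windows. They held 18.3% and 18.8% of the H3K9me3 counts against 5.66% and 5.70% of the input counts. Much of this lay in 1 place. The last domain of I, with 37 windows of which 13 had even input, alone held 7.35% and 6.98% of the H3K9me3 counts. Over all windows tested, the median input depth was 0.927 in those called higher and 1.02 in the others.

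Domains in arms lay close together and those in centres far apart. The median gap between neighbouring domains was 6500 bp over all chromosomes, with quartiles of 2500 and 19499 bp. It was 5000 bp in arms, 75749.5 bp in centres and 16500 bp on X. Gaps of up to 5 kb made up 50.5% of gaps in arms, 13.9% in centres and 27.4% on X. Of the 193 gaps of over 100 kb, 95 were in centres, 53 in arms and 45 on X. Each gap was counted in the region of the domain to its left, so the longest gap counted in arms (449998 bp, on III) ends inside a centre. The long gaps of centres restate their low number of domains per Mb and are no separate result.

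The longest stretches without a domain lay at a relative position of 0.33 to 0.68 along their chromosomes. On II it spanned 10034971 to 10703467 (668497 bp), on X 5758213 to 6422709 (664497 bp) and on V 11488427 to 12125923 (637497 bp). On I it spanned 7005471 to 7571468 (565998 bp), on III 4299085 to 4749082 (449998 bp) and on IV 9877802 to 10261799 (383998 bp). These stretches were not wholly without calls, as those on II, III, IV and X held 1 to 3 isolated called windows and those on I and V held 0. Their mean log2 ratios lay between -0.18 (X, preparation 2) and -0.44 (I, preparation 3), close to the level of centres.

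The 2 preparations gave nearly the same domains. Calling windows with a ratio of at least 1 in a single preparation, an alternative added after seeing the data, gave 3096 domains in preparation 2 and 3500 in preparation 3, with a median length of 2500 bp in each. Of the windows in domains of preparation 2, 97.1% were also in domains of preparation 3, and of those of preparation 3, 86.4% were in domains of preparation 2. Preparation 3 had the higher ratio in 3061 of 3304 domains (92.6%). On this scaling it was thus the stronger one in nearly all domains.

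Across domain edges the level stepped up within a window or so and then climbed further inside. Edges were defined in 1 preparation and read in the other, so that the values did not set the edges they describe. For 147 domains of over 20 kb defined in preparation 2, the mean log2 ratio in preparation 3 was 1.45 in the first window inside the edge, 2.33 at 2.25 kb inside and 3.06 at 9.75 kb inside. Outside it was 0.76 at 0.75 kb and 1.39 at 9.75 kb. The level thus climbed over several kb within a long domain, and the lowest point lay just outside, where the joining rule itself places uncalled windows. With the preparations exchanged, 173 domains gave 1.18, 1.99 and 2.71 at the same points inside and 0.59 and 1.21 at those outside.

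Shorter domains had edges of the same shape. For 673 domains of 5 to 20 kb defined in preparation 2, the mean log2 ratio in preparation 3 was 1.51 in the first window inside, 2.25 at 2.25 kb inside and 0.63 at 0.75 kb outside. At 9.75 kb outside, the surroundings of these domains stood at 0.98, below the 1.39 around long ones. Long domains therefore sat in neighbourhoods that were themselves more marked.

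**Figure D4:**
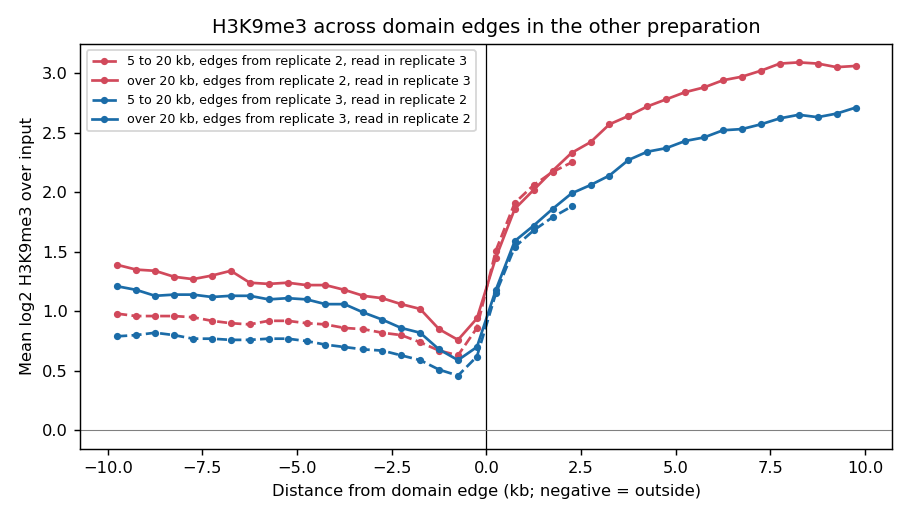
Mean log2 ratio of H3K9me3 over input (y axis) against distance from the domain edge in kb, negative outside (x axis), for N2 domains defined in 1 preparation and read in the other; solid lines are domains of over 20 kb and dashed lines those of 5 to 20 kb. At 0.25 kb inside, all 4 lines lie between 1.15 and 1.51, and at 0.75 kb outside between 0.46 and 0.76.

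The distance over which levels resembled each other differed between regions. Between a window in preparation 2 and a window in preparation 3, the Pearson correlation in arms was 0.97 at the same place, 0.70 at 5 kb and 0.44 at 100 kb. In centres it was 0.81, 0.35 and 0.05, and on X 0.93, 0.59 and 0.29. These are descriptions over 109831, 54916 and 35353 windows that share libraries and neighbours. Pooled arms also differ in their means, so the correlation was taken inside each arm as well. There its median over the 10 arms was 0.95 at the same place, 0.56 at 5 kb and 0.22 at 100 kb, where it ran between 0.09 and 0.52. Inside the 5 centres the medians were 0.76, 0.23 and 0.02. At 100 kb the median inside an arm was thus below the pooled value of 0.44.

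Chromosome ends averaged near the level of autosome arms (0.77) over the outer 50 kb. Over the outer 20 kb they averaged 1.02, but that mean leaned on the right end of I. It stood at 3.52 there, with an input depth of 42.0 times the median window, and the next highest end was V right, at 2.05. Over the outer 50 kb of the 12 ends the mean log2 ratio was 0.78 in preparation 2 and 0.86 in preparation 3 (0.82 ± 0.06, SD, n = 2), which became -0.35 under library totals. It ran between 0.09 at the left end of IV and 2.14 at the right end of V. In both preparations 7 of 12 ends lay above the rest of the outer 0.333 of their chromosome and 4 of 12 below it. On the autosomes alone, 5 of 10 ends lay above and 4 below. The ends below were II left (0.30 and 0.36 in preparations 2 and 3, against 1.18 and 1.33 in the rest of the arm), IV left, IV right and V left. The right end of II differed in direction between preparations.

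The first domain was usually within a few kb of the end of the assembled sequence. It began within 1 kb at 7 ends and within 5 kb at 10. On the left it lay at 1 to 1000 on I, 103 to 2102 on III, 2976 to 3975 on V and 238 to 2737 on X. The exceptions were II, where it lay at 13514 to 15013, and IV, where the first 66.3 kb held no domain and the first lay at 66344 to 67343. On the right the first domains lay at 15277948 to 15278947 on II, 13779044 to 13782043 on III, 17492269 to 17493768 on IV, 20922387 to 20923886 on V and 17703162 to 17714161 on X. Most of these were short and weak, with a mean log2 ratio of 0.97 on II left to 1.95 on I left, apart from X right at 3.01 and 3.10 and the right end of I. In windows of even input the first domain of I left stood at 1.03 and that of IV right at 2.54, each on 1 window, against 1.95 and 1.53, and that of III right had no such window. Under library totals those of II left, II right, V left and V right had ratios below 0, at -0.20, -0.01, -0.08 and -0.09.

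The right end of I stood apart from all the others. The domain from 15053437 to 15071936 had an input depth of 44.2 times the median window and averaged 185000 and 187000 scaled counts in H3K9me3, against 9010 and 8380 in input, a log2 ratio of 3.62 and 3.78. In its 13 windows of even input the mean was 2.41, against 3.70 over all of them. Its 37 windows held 7.35% and 6.98% of H3K9me3 counts against 0.804% and 0.754% of input counts. This end of I is known to carry the ribosomal RNA gene repeats, of which a genome assembly holds few copies, so a ratio here is an average over many copies. How reads that map to several places were counted is not given in the sources used here. Input depth was also raised at the right end of III, where the outer 5 kb stood at 5.01 times the median.

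**Figure D5:**
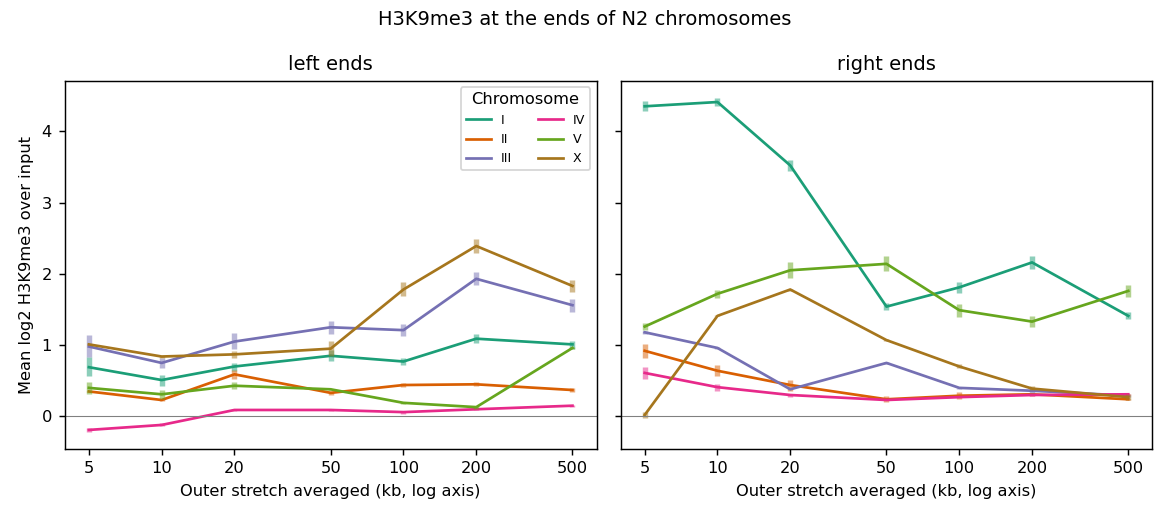
Mean log2 ratio of H3K9me3 over input (y axis) in the outer 5 to 500 kb (x axis, log scale) of the left and right ends of the 6 N2 chromosomes; lines join the mean of preparations 2 and 3 and thick bars span both. The right end of I reaches 4.35 in the outer 5 kb, where input depth was 50.8 times the median, and the left end of IV is lowest there, at -0.19.

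The most marked bins lay inside the arms and not at their tips. The highest bin of 100 kb on V, from 17400001 to 17500000, had 4.43 and 4.63 and lay 3.42 Mb from the right end. On II it had 3.44 and 3.80 and lay 1.70 Mb from the left end. On I, III and IV the highest bins lay 1.07, 1.30 and 1.19 Mb from the nearer end, with 2.44 and 2.67, 2.67 and 2.86, and 2.01 and 2.10. X differed, with its highest bin (2.88 and 3.09) only 0.10 Mb from the left end.

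Borders between arm and centre were placed by fitting 3 flat levels to the bins of 100 kb. On I the borders fell at 2.70 and 10.9 Mb, with levels of 0.91 on the left, -0.18 in the middle and 1.35 on the right. They fell at 3.50 and 10.9 Mb on III (1.51, -0.24 and 0.36), at 4.30 and 13.4 Mb on IV (0.82, -0.13 and 0.53) and at 3.60 and 16.4 Mb on V (0.91, 0.03 and 2.40). Each preparation fitted alone gave the same places, except for the right border of IV, at 13.4 Mb in preparation 2 and 12.9 Mb in preparation 3. All of these borders lay nearer the ends than 0.333 of the length, so the arms as defined above include some centre-like sequence.

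Chromosome II did not follow this rule. Its best fit put both changes into the left arm, at 0.80 and 3.60 Mb, with levels of 0.54, 2.01 and 0.00, that is, a marked block set in from a less marked tip. A fit that required the middle level to be lowest, chosen after seeing the data, placed the borders of II at 3.90 and 12.0 Mb with levels of 1.61, -0.21 and 0.46. With that fit for II, the low middle was 7.40 to 12.8 Mb long on the autosomes. The 3 levels accounted for 59.9% (IV) to 84.6% (III) of the variance between bins on the autosomes in the first fit.

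Some borders were narrower than others. Widths were read in a running mean over neighbouring bins of 100 kb. That smoothing itself widens a sharp step, so how abrupt the narrowest borders were cannot be told. The width is the distance between the places where the level had moved by 25% and by 75% of the step. It was 0.30 Mb at the left border of IV and 0.40 Mb at the right border of I. At the right border of II it was 0.50 Mb, in the fit that required the lowest middle. It was 1.30 Mb at the left border of I and 1.40 Mb at the right borders of IV and V. With that fit for II, 3 of the 10 borders were at most 0.5 Mb wide.

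On X the marking was most pronounced at the left end. Its best fit put both changes close to the left end, at 0.30 and 2.10 Mb, with levels of 2.40, 0.77 and 0.00 and 52.7% of variance. The fit that required the lowest level in the middle placed borders at 2.00 and 16.7 Mb, with levels of 1.03, -0.04 and 0.51 and 45.2% of variance, an order of levels like that of IV. In the outer left 300 kb, a stretch taken from this fit, the level was 2.30 in preparation 2 and 2.51 in preparation 3 and 79.6% of windows were called higher. In the rest of X it was 0.10 and 0.03, and 7.68% of windows were called higher. Cut into 3 parts of equal length, the left of X stood at 0.42 and 0.42, the middle at -0.06 and -0.17 and the right at 0.06 and -0.03. The middle of X was above the mean of the autosome centres (-0.17 and -0.28) by about the gap between the preparations.

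Of the 23 windows called lower, 16 lay in centres, which hold 27.4% of the windows tested, 7 in arms and 0 on X (edgeR, also 0 at an unadjusted p under 0.05 and 0 with DESeq2). The lowest, singled out after its value was seen, was on I from 6062476 to 6062975. It had 65 and 78 raw, unscaled counts in H3K9me3 2 and 3 against 316 and 336 in input 2 and 3. With TMM scaling its fitted log2 ratio was -1.24 (edgeR adjusted p 1.11e-07). The mitochondrial genome, which has no histones, had 0 of 26 windows called in edgeR (also 0 at an unadjusted p under 0.05 and 0 with DESeq2), and its level differed between preparations, at -0.04 and -1.32. Its share of all counts was 0.340% and 0.205% in H3K9me3 libraries and 0.832% and 1.22% in inputs.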

How the data were processed

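The values the authors deposited are raw counts in adjoining windows of 500 bp, with a column for each of 30 libraries. Per the labels, fragments of crosslinked chromatin were amplified and read from both ends, and the build is ce10 per the submitters' processing notes. The aligner, the counting tool, duplicate handling and mapping to repeats are not given in the sources used here. Reads carry no molecular identifiers, so counts overstate independent molecules unless duplicates were removed. Of 200579 windows, 442 of other length and 11 with a mean under 20 counts were left out. Coordinates are 1-based as in the table.

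edgeR 4.0.16 in R 4.3.3 (glmQLFit, glmQLFTest) was run with TMM factors of 0.678 and 0.639 for H3K9me3 and 1.515 and 1.524 for input, and p-values were adjusted by Benjamini-Hochberg over all windows tested. The common dispersion was 0.00879. Input depth is the mean scaled input over that of the median window. DESeq2 1.42.0 was an alternative. The fit was tested on simulated data in which few windows were changed, so that test does not bear on the choice of scaling.

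Named loci were the 10 longest domains, the 10 with the highest mean ratio among those of at least 3 called windows, the longest and highest of each chromosome, the longest gap of each chromosome, the first domain from each end and the 10 borders. The strain, the libraries, this rule and the tests were chosen with earlier results of these data known. Genes and sequences are not given, because the annotation at hand is of another build. Replicate numbers did not enter the main fit as pairs, whereas the level of a preparation sets libraries of the same number against each other. The deviations of H3K9me3 2 and input 2 correlated at 0.009. Because the inputs were nearly even, this value cannot show whether libraries of the same number share their chromatin.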

Additional observations from a re-analysis of the deposited data

Results flagged for a closer look

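The library labelled N2 input 1, set aside above, was less even than the other inputs and more even than the precipitated libraries, with a 99th percentile window of 13.04 times the median, against 1.71 and 1.74 in inputs 2 and 3 and 19.4 and 22.99 in H3K9me3 2 and 3. Its mean log2 ratio over the library labelled N2 H3K9me3 1 in autosome arms was 0.65, and it was 0.28 on X and 0.05 in centres. In the windows called higher with replicates 2 and 3, the ratio of H3K9me3 over input as labelled averaged -1.55 in replicate 1, against 2.13 in replicate 2 and 2.37 in replicate 3. It drew attention because it lies in data outside the comparison and above the level of inputs 2 and 3. Whether the names were exchanged was not tested, and the library was moved to no other group.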

How the results depend on the processing

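Main values were 39476 higher and 23 lower windows, 3304 domains, a median length of 2500 bp and gap of 6500 bp, and 88.4% of higher windows in arms. Library totals gave 17364, 126527, 1528 domains, a gap of 10749.5 bp and 89.8%, with levels of -0.39 in arms, -1.38 in centres, -1.05 on X and -0.35 at ends, and 4 first domains below 0 (II at -0.20 and -0.01, V at -0.08 and -0.09). Even input (0.5 to 2 times the median) gave a gap of 6000 bp, 88.8%, and 0.73 at ends. A threshold of 0.5 gave 17311 lower windows, 5000 bp and 86.4%. A threshold of 2 gave 19977 higher windows, 1739 domains, 10000 bp, 89.8% and 0 lower windows (edgeR; 0 at unadjusted p under 0.05 and 0 with DESeq2). Replicates 1, 2 and 3 as labelled gave 0 higher and 0 lower windows and 0 domains (no medians). Levels under those labels were 0.29 in arms, -0.03 on X and 0.34 at ends, and the mean middle segment was 7.88 Mb, against 8.06 Mb. That mean is over the autosomes in the first fit. For II the middle segment there is the marked block from 0.80 to 3.60 Mb (level 2.01), so the mean is not the length of the low middle.

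With all genotypes sharing the spread, 38 windows were lower and the arm share was 88.5%. Without replicate 2 or 3, in that same fit, the single library of a type being taken to vary like the other genotypes, 36217 to 41712 windows were higher and 267 (without 3) to 1479 (without 2) lower, with 3055 to 3544 domains, gaps of 5500 to 7000 bp, an arm share of 88.5% and a middle segment of 7.96 to 8.06 Mb. DESeq2 gave 39454 and 25. The replicate block gave 39489 higher and 27 lower windows and 3315 domains. Whether the numbers pair the libraries cannot be told from the correlation of their deviations (r = 0.009), because the inputs were nearly even.

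Joining across 0 windows gave medians of 2000 bp (length) and 4500 bp (gap), and across 3 windows 3000 and 9500 bp. A minimum of 1 called window gave 1500 and 4500 bp, and of 4 gave 1941 domains with 4500 and 10000 bp. Arms of 0.25 of the length gave 83.4%, 1.03 in arms and -0.15 in centres, and borders from the data 81.4%, 1.14 and -0.13. Preparation 3 alone gave a gap of 6000 bp. The outer 20 kb stood at 1.02. Requiring the lowest middle gave 9.12 Mb. The causes of these changes were not tested. Other summary values (79) were unchanged within the preparations' spread or 1.5 times for counts. Among loci, 166 values were unchanged, 88 moved and 4 changed sign, and among borders 86 were unchanged and 14 moved. The median H3K9me3 window held 140 and 124 counts, which limits how finely a lower ratio can be measured.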
